A study of Mus musculus with 6 samples.

Results

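The genes of the 26S proteasome and its activators were followed in the liver of pregnant mice with and without hepatocyte ChREBP. Genes were taken from the deposited table by symbol, as every gene named Psma to Psmg with a number, pseudogenes left out, and with a mean FPKM of at least 1 over the 6 libraries. FPKM is the read count of a gene scaled by its exonic length and by the total of its library. Of 56691 genes in the table, 49 carried such a symbol and 47 passed the minimum, among 10866 genes that passed it in all. The 2 left out were Psma8, which makes an alpha subunit of the testis, with 0 to 13 reads a library, and Psmb11, which makes a beta subunit of the thymus, with 0 to 2 reads. The 47 genes were 7 of the alpha ring (Psma1 to Psma7), 7 of the constitutive beta ring (Psmb1 to Psmb7), 5 immune genes (Psmb8, Psmb9, Psmb10, Psme1 and Psme2), 6 ATPases of the 19S particle (Psmc1 to Psmc6), 11 other 19S subunits (Psmd genes), 7 assembly factors (Psmg1 to Psmg4, Psmd5, Psmd9 and Psmd10), 3 other regulators (Psme3, Psme4 and Psmf1) and Psme2b, a near-identical copy of Psme2.

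The proteasome breaks down proteins tagged with ubiquitin. Its core is a barrel of alpha and beta rings that holds the cutting sites of Psmb5, Psmb6 and Psmb7, and the 19S particle binds, unfolds and feeds in the substrate with the help of its ATPases. Cells exposed to interferon put Psmb8, Psmb9 and Psmb10 in place of Psmb5, Psmb6 and Psmb7, respectively, and make the activator of Psme1 and Psme2, and these immune forms supply peptides for MHC class I molecules. Immune cells carry them without a stimulus, and NRF1 (Nfe2l1) raises the constitutive genes together when proteasome activity falls.

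Liver RNA of 3 KPF and 3 WPF mice was sequenced, all of them dams that received HFrD, a high fructose diet, during pregnancy. KPF dams were hChrebp-KO, that is, Chrebp flox/flox with 1 Alb-Cre allele (Cre +/-), in which the albumin promoter drives Cre in hepatocytes, so that the other cells of the liver keep the gene. WPF dams are labelled WT, whereas the methods of the study describe them as Chrebp flox/flox without Cre (Cre -/-); both groups were mated with Chrebp flox/flox males and were killed late in pregnancy. No source used here gives their age, or says whether the 3 libraries of a group came from separate litters, cages or extraction days, so that p-values measure the spread between these libraries.

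The libraries held between 10694496 and 14496630 counted reads, of which 24651 to 38893 fell on the 47 genes. Values per library below are CPM, counts scaled to library size with TMM factors in edgeR, unless FPKM is named. The 8 hepatocyte markers summed to 88538, 82113 and 109094 CPM in KPF1, KPF2 and KPF3. In WPF2, WPF3 and WPF4 they summed to 175678, 107103 and 106039 CPM. Most of each sum was Alb, at 65832 to 150690 CPM. KPF2 stood apart, because 6 striated muscle genes summed to 3027 CPM there and to between 4.81 and 11.03 CPM in the other libraries. Mlxipl, the gene of ChREBP, was at 182, 709 and 860 CPM in KPF1, KPF2 and KPF3 and at 974, 1277 and 891 CPM in WPF2, WPF3 and WPF4, and its reads cover the whole gene, so they do not measure the excision. Mitochondrial transcripts took 33.2% to 35.0% of the reads in KPF and 18.7% to 29.1% in WPF, and the part of this difference in the results was not tested. A gene was called higher or lower in KPF at an unadjusted p under 0.05 in edgeR's quasi-likelihood test and a change of at least 1.5-fold. In bulk liver, fewer cells of a type and less RNA per cell cannot be told apart.

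Of the 47 proteasome genes, 1 was called higher in KPF and 1 was called lower, and these counts changed with the processing (last sections). Psmg2, which makes an assembly chaperone of the alpha ring, was 1.54-fold higher in KPF, and Psmb5, which makes the chymotrypsin-like cutting subunit, was 1.67-fold lower. Among all 10866 tested genes, 9.81% were called, 5.83% higher and 3.98% lower, so the 2 of 47 made a smaller share than that of all genes. Psmg2, Psmb5 and Psmb2 had an unadjusted p under 0.05, against 10.8% of all genes. None of the 47 passed an adjusted p of 0.05 (smallest 0.430, edgeR with Benjamini-Hochberg adjustment over all tested genes), and none of the 10866 did. By DESeq2, 0 of the 47 passed it and 156 of all genes did. The median log2 fold change of the 47 genes (KPF over WPF) was -0.09, against 0.02 over all genes, with 17 genes above 0 and 30 below. With library totals in place of TMM, the median of all genes moved to -0.12 and that of the 47 genes to -0.23. The 95% interval lay within a 2-fold change in either direction for 38 of 47 genes, and within 1.5-fold for 2, so a change of 1.5-fold could not be told from none for most of them.

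**Figure D1:**
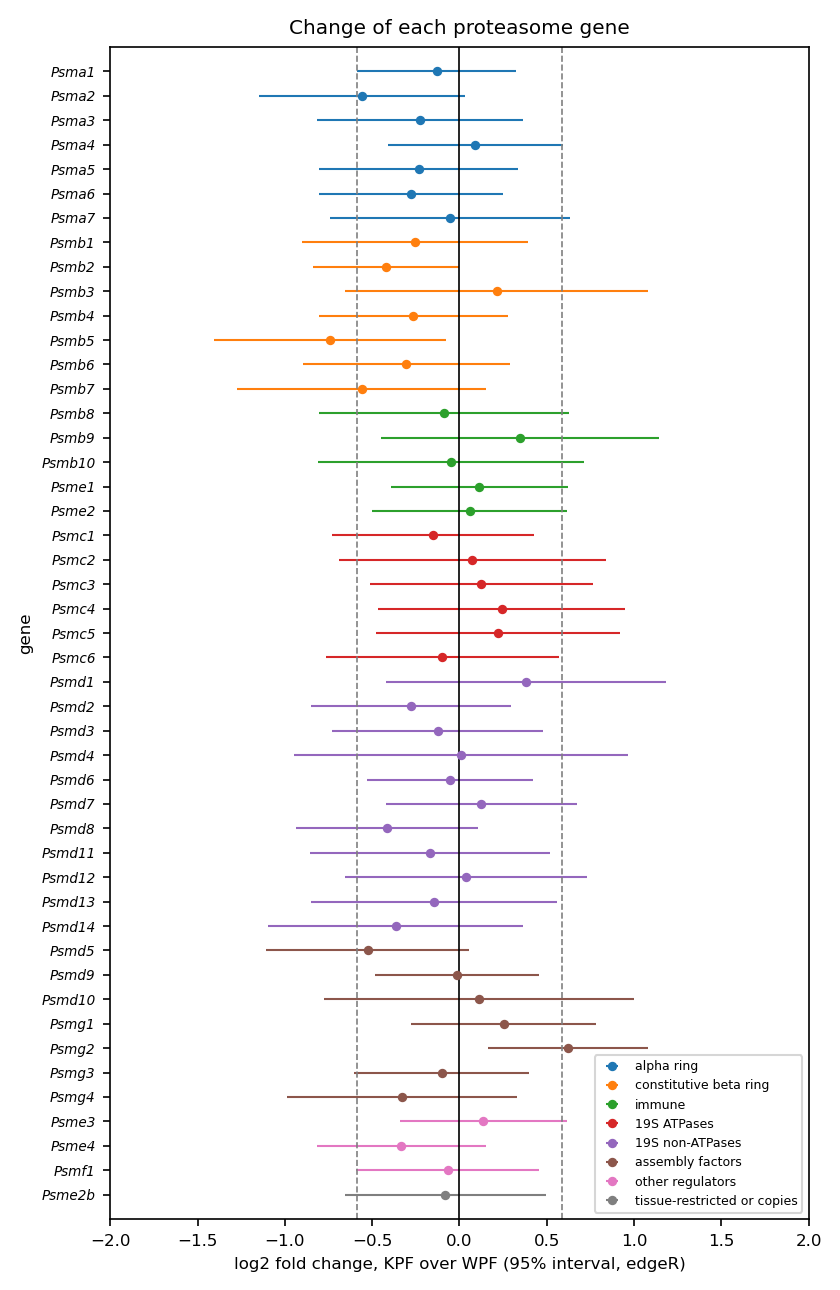
Log2 fold change of each of the 47 genes in KPF over WPF (x axis) with its 95% interval from edgeR, by gene and coloured by class; dashed lines mark 1.5-fold. The values run from -0.74 for Psmb5 to 0.62 for Psmg2, and the intervals of Psmb5, Psmb2 and Psmg2 leave out 0.

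Without KPF2, the library with muscle transcripts, 2 genes were called higher and 1 lower. The second higher gene was Psmd1, the large scaffold of the 19S base, whose log2 fold change went from 0.38 to 0.66. The median of the 47 genes was then -0.07.

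The promoters of the cutting subunits are shown because the constitutive and the immune genes are known to answer to different factors. RefSeq (GRCm38.p6) gave a window of 250 bases before to 50 bases after the start for 40 of the 47 genes, and among the cutting subunits Psmb7 had no window. The following 120 bases end at the base before the start site, are written on the strand of the gene, and have in capitals the motif match named.
Psmb5 (chr14:54617996-54618115, minus strand, antioxidant response element): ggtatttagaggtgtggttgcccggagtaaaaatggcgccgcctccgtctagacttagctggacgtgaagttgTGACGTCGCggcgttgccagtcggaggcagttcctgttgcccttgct
Psmb6 (chr11:70525237-70525356, plus strand, antioxidant response element): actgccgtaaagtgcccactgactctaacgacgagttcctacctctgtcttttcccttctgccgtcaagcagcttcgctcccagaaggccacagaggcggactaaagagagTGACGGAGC
Psmb8 (chr17:34198075-34198194, plus strand, interferon-gamma activated site): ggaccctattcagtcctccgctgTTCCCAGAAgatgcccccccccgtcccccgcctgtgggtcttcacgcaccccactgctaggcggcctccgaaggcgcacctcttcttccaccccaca
Psmb9 (chr17:34187331-34187450, minus strand, no interferon-gamma activated site): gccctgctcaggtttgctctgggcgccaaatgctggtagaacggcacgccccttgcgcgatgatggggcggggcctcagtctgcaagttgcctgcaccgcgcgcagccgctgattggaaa
Psmb10 (chr8:105938393-105938512, minus strand, E-box): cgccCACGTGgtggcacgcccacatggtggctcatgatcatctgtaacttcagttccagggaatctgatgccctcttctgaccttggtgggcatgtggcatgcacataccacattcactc

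The motifs were searched on both strands of the windows. The 40 genes had 43 windows, and a gene was counted if any of its windows matched. The shares of all windows count single windows, so the units differ. The antioxidant response element TGACNNNGC, which NRF1 and NRF2 bind, was found in 6 of the 40 genes (15%: Psmb5, Psmb6, Psmc6, Psmd9, Psmd12 and Psme4), against 12.4% of 32851 windows of the same length. It starts at -47 in Psmb5 and at -9 in Psmb6. The interferon-stimulated response element was found in 5 genes (12.5%: Psmb3, Psmd4, Psmd9, Psme1 and Psmg4), against 3.44% of all windows. The interferon-gamma activated site TTCNNNGAA was found in 3 (7.5%: Psmb8, Psmd2 and Psmg1), against 8.30%, and starts at -97 in Psmb8. The CCAAT box (CCAAT) was found in 13 (32.5%) against 37.4%. The E-box CACGTG, a core part of the element that ChREBP binds, was found in 4 (10%: Psma4, Psmb10, Psmd9 and Psme3) against 7.15%, and starts at -116 in Psmb10. The motif marked in the sequences was set gene by gene and differs among the immune genes. Psmb10, marked for the E-box, had neither interferon motif in its window, and Psmb8 and Psmb9 had no E-box. The interferon motifs can share the letters GAA, and the antioxidant element can share its last letter with an E-box. A match describes the letters only, and binding was not measured here.

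Of the 14 constitutive genes of the core barrel, 1 was called, lower in KPF, against 3.98% of all tested genes. In 12 of them the log2 fold change was below 0 (85.7%, against 48.6% of all tested genes), with a median of -0.26. Genes of 1 library are not independent, so these are not separate results. In CPM, WPF2 was the highest WPF library for 12 of the 14, against 33.1% of all tested genes. Leaving out each library in turn, the median ran from -0.43 to -0.17. In CPM, the groups did not overlap in 3 of the 14, against 15.7% of all tested genes in either direction. This count rests on TMM scaling, since further core genes did not overlap by FPKM (below). The 7 alpha genes, which make the outer rings and the gate, had a median of -0.23 and ranged from -0.56 for Psma2 to 0.09 for Psma4. Psma2 was at 57.1, 54.1 and 59.1 CPM in KPF1, KPF2 and KPF3 and at 104, 85.9 and 60.2 CPM in WPF2, WPF3 and WPF4. Every KPF library lay below every WPF library, though WPF4 exceeded KPF3 by little (adjusted p = 0.473 in edgeR). Psma4 was at 134, 106 and 114 CPM in KPF, against 116, 104 and 113 CPM in WPF, so its groups overlapped and its level differed little from library to library. The other 5 alpha genes had log2 fold changes from -0.28 for Psma6 to -0.05 for Psma7, all with overlapping groups in CPM.

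Among the constitutive beta genes, Psmb5 (ENSMUSG00000022193) made the largest difference. It was at 45.0, 49.7 and 37.9 CPM in KPF1, KPF2 and KPF3 (44.2 ± 5.94, SD, n = 3) and at 101, 67.4 and 52.6 CPM in WPF2, WPF3 and WPF4 (73.8 ± 25.01, SD, n = 3). The groups did not overlap, and WPF2 was the highest by far. The log2 fold change was -0.74 (SE 0.29, 95% interval -1.40 to -0.08, edgeR p = 0.0334, adjusted p = 0.438), and the exact two-sided permutation p was 0.1, the smallest that 3 against 3 allows. Without WPF2 the value was -0.44 and the gene was no longer called. The call was also lost without KPF1 (-0.75), KPF3 (-0.64) or WPF3 (-0.80), and without KPF2 it held at -0.84.

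The other 2 constitutive cutting subunits were not called. Psmb6, the caspase-like subunit, was at 148, 139 and 140 CPM in KPF, against 217, 178 and 133 CPM in WPF, with a log2 fold change of -0.30 (SE 0.25). The KPF libraries were close together, and WPF4 fell below them. On the FPKM scale, which does not use TMM, its groups did not overlap (76.6, 73.1 and 66.6 in KPF, 102, 102 and 82.6 in WPF). The same held on that scale for Psma3, Psma6, Psmb4 and Psmb7, whose groups overlapped in CPM. The share of all genes without overlap in FPKM was not counted. Psmb7, the trypsin-like subunit, was at 9.65, 5.29 and 7.69 CPM in KPF, against 13.9, 8.90 and 10.6 CPM in WPF, with a log2 fold change of -0.56 (SE 0.31) and groups that overlapped. It had 700 reads in all libraries together, and Nek6 overlaps it on the opposite strand with 3620 reads, so that its level is uncertain where counting did not use strand.

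Of the structural beta genes, Psmb2 varied little within either group. It was at 17.2, 17.5 and 14.8 CPM in KPF, against 23.4, 21.8 and 21.1 CPM in WPF, so each KPF library lay below each WPF library. The log2 fold change was -0.42 (SE 0.18, adjusted p = 0.460 in edgeR), under the 1.5-fold needed for a call. Psmb3 had the highest value of the ring, with a log2 fold change of 0.21 (SE 0.37), and was at 249, 126 and 111 CPM in KPF, against 177, 139 and 104 CPM in WPF. KPF1 alone set its mean above that of WPF, and without KPF1 the value turned to -0.24. Psmb1 and Psmb4 had log2 fold changes of -0.26 each, with overlapping groups in CPM.

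**Figure D2:**
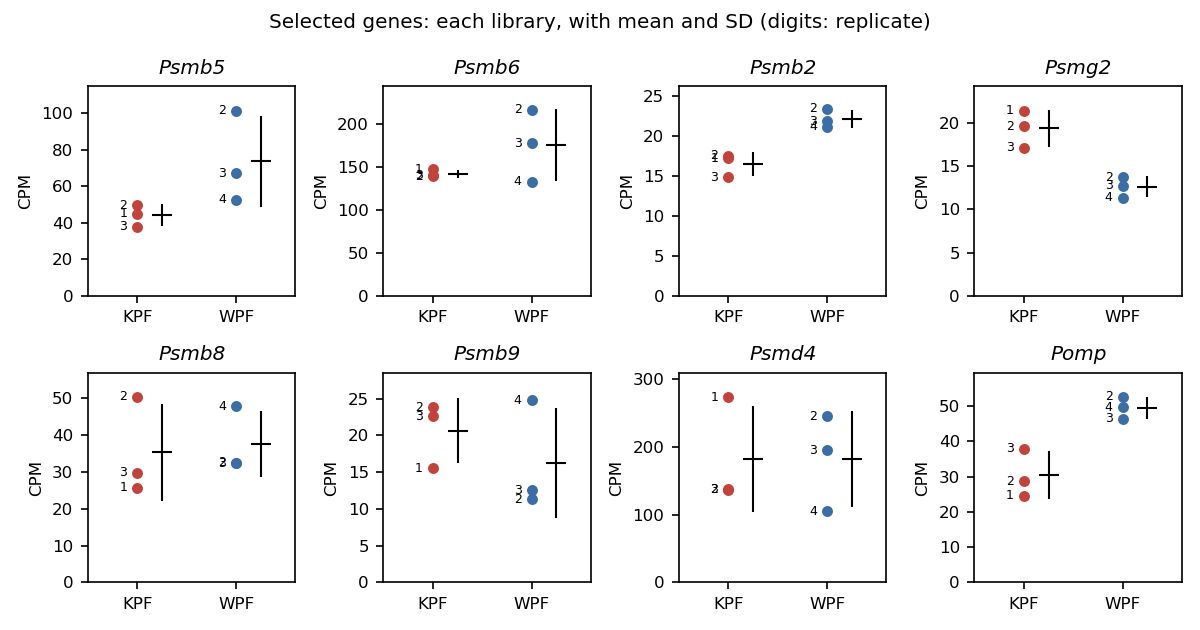
CPM (y axis, from 0) of 8 genes in each KPF and WPF library, with digits for the replicate and, beside the points, the mean and SD of 3 libraries. Psmb5, Psmb2 and Pomp lie lower in every KPF library and Psmg2 higher, whereas the groups overlap for Psmb6, Psmb8, Psmb9 and Psmd4.

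The immune genes were not called in either direction. Their median log2 fold change was 0.06 (-0.06 with library totals), 3 were above 0 and 2 below, and the groups overlapped in all 5. Psmb8 (ENSMUSG00000024338), the immune counterpart of Psmb5, was at 25.7, 50.3 and 29.7 CPM in KPF, against 32.4, 32.3 and 47.7 CPM in WPF (log2 fold change -0.09, SE 0.31). In each group 1 library stood above the other 2, KPF2 and WPF4. Psmb10, the counterpart of Psmb7, had the same high libraries, at 26.5, 51.2 and 22.4 CPM in KPF and 30.8, 33.1 and 39.7 CPM in WPF (log2 fold change -0.05, SE 0.33). Without KPF2, its value was -0.50 and that of Psmb8 was -0.44, and the median of the 5 genes was -0.13, against -0.24 for the core. The difference between the classes was not tested.

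Psmb9, the counterpart of Psmb6, had the highest log2 fold change of the class at 0.35 (SE 0.34). It was at 15.5, 23.8 and 22.6 CPM in KPF, against 11.3, 12.5 and 24.8 CPM in WPF. WPF4 was as high as the KPF libraries, and without it the value was 0.78 and the gene was called higher. Tap1, the peptide transporter gene that overlaps Psmb9 on the opposite strand with 1904 reads against 1382 for Psmb9, was at 28.0, 26.5 and 26.5 CPM in KPF and 17.4, 17.9 and 35.4 CPM in WPF, with the same high library in WPF.

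The activator genes Psme1 and Psme2 were steadier. Psme1 was at 92.3, 114 and 108 CPM in KPF, against 91.8, 89.7 and 108 CPM in WPF, with a log2 fold change of 0.11 (SE 0.22). Psme2 was at 56.3, 91.6 and 73.5 CPM in KPF, against 74.7, 69.5 and 68.3 CPM in WPF, with a value of 0.06 (SE 0.24). Psme2b, the copy of Psme2, had 0.287 to 0.351 of the FPKM of Psme2 in the 6 libraries, and how reads shared by the pair were divided is not known, so that the level of either is uncertain.

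The balance of immune to constitutive cutting subunits was compared by FPKM within each library. Psmb8 had 0.152, 0.269 and 0.208 of the FPKM of Psmb5 in KPF1, KPF2 and KPF3 and 0.0850, 0.128 and 0.241 in WPF2, WPF3 and WPF4. Psmb9 had 0.0537, 0.0875 and 0.0822 of the FPKM of Psmb6 in KPF and 0.0265, 0.0359 and 0.0954 in WPF. In both pairs WPF2 and WPF3 were lowest and WPF4 was among the high libraries, so the groups overlapped. The ratio of Psmb10 to Psmb7 also overlapped and ran from 4.44 in WPF2 to 19.4 in KPF2, on the few reads of Psmb7. The size of each ratio rests on the exonic lengths, which are 3381 bases for Psmb8 and 899 for Psmb5. Their coding lengths are 828 and 792 bases. Per kilobase of coding length, the mean level of the 6 libraries was 44.1 for Psmb8 and 73.3 for Psmb5. It was 28.1 for Psmb9 and 219.7 for Psmb6, and 41.6 for Psmb10 and 11.1 for Psmb7. The order of the libraries within a pair is the same by either length.

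Markers of immune cells were set beside the immune genes. The 11 macrophage markers summed to 215, 271 and 271 CPM in KPF and 178, 258 and 390 CPM in WPF, with WPF4 highest, as for Psmb8, Psmb9 and Psmb10 among the WPF libraries. Among the KPF libraries the orders differed, since KPF2 and KPF3 were alike in the macrophage sum while Psmb8, Psmb9 and Psmb10 were highest in KPF2. The 11 lymphocyte markers, of which 4 passed the FPKM minimum, summed to 22.1 to 36.3 CPM in KPF and 13.6 to 23.3 CPM in WPF. Stellate cell and fibroblast markers summed to 177 to 720 CPM in KPF and 107 to 134 CPM in WPF, and 5 of 8 were called higher, against 5.83% of all tested genes. These 5 included Des, which muscle also expresses and which gave 493 of the 720 CPM in KPF2, the library with muscle transcripts. Without Des the sums were 369, 228 and 167 CPM in KPF and 96.6, 125 and 113 CPM in WPF, and 4 of 7 were called higher. Endothelial markers summed to 184 to 292 CPM in KPF and 166 to 213 CPM in WPF, with 1 of 8 called higher. No marker of these lists was at 0 in all libraries, and their part in the values of the proteasome genes was not tested.

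The 19S genes were not called in either direction. The 6 ATPases had a median log2 fold change of 0.10 and ranged from -0.15 for Psmc1 to 0.24 for Psmc4. Psmc4 was at 150, 93.5 and 97.9 CPM in KPF, against 113, 108 and 67.9 CPM in WPF. Psmc5 was at 152, 99.9 and 100 CPM in KPF, against 116, 116 and 70.1 CPM in WPF (log2 fold change 0.22, SE 0.30). Psmc1 was at 63.9, 47.0 and 47.8 CPM in KPF, against 70.8, 60.0 and 45.5 CPM in WPF. In all 3, KPF1 was the highest KPF library and WPF4 the lowest WPF library, and the spread within the groups exceeded the difference between them. The median of the ATPases was 0.22 without KPF2, -0.15 without KPF1 and -0.095 without WPF4.

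The 11 other 19S subunits had a median of -0.13. Psmd1 was the highest, at 132, 56.7 and 113 CPM in KPF and 88.0, 83.2 and 61.0 CPM in WPF (log2 fold change 0.38, SE 0.35), and KPF2 lay below all WPF libraries. Psmd8 was the lowest, at 38.3, 24.4 and 30.5 CPM in KPF and 46.0, 39.2 and 39.1 CPM in WPF, with no overlap of the groups and a log2 fold change of -0.41 (SE 0.22). Psmd4, the ubiquitin receptor, varied most within the groups, at 273, 137 and 138 CPM in KPF and 245, 195 and 105 CPM in WPF, with group means of 182 CPM each. Psmd14, the deubiquitinase of the lid, had a log2 fold change of -0.37 (SE 0.31) with overlapping groups. The rest of the subunits lay between -0.28 for Psmd2 and 0.13 for Psmd7. Without KPF2 the median of the 11 was 0.05.

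The assembly factors held the other called gene, Psmg2 (ENSMUSG00000024537). It was at 21.4, 19.6 and 17.1 CPM in KPF1, KPF2 and KPF3 (19.4 ± 2.16, SD, n = 3) and at 13.7, 12.7 and 11.3 CPM in WPF2, WPF3 and WPF4 (12.6 ± 1.21, SD, n = 3). Every KPF library lay above every WPF library, which held for 1 of the 47 genes and 7.55% of all tested genes. The log2 fold change was 0.62 (SE 0.20, 95% interval 0.16 to 1.08, edgeR p = 0.0145, adjusted p = 0.430; exact two-sided permutation p = 0.1). The value lay close to the 1.5-fold threshold, and scaling by library totals in place of TMM gave 0.51, under it. Psmg1, whose product pairs with that of Psmg2, was at 21.8, 22.4 and 19.8 CPM in KPF, against 22.9, 16.7 and 14.2 CPM in WPF (log2 fold change 0.25, SE 0.23).

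Psmg3 and Psmg4, which make the second chaperone pair of the alpha ring, had log2 fold changes of -0.10 and -0.33. Psmg4 was at 14.2, 16.1 and 14.4 CPM in KPF and 24.9, 19.4 and 11.99 CPM in WPF. Psmd5, a chaperone of the 19S base, was at 8.88, 6.10 and 9.25 CPM in KPF, against 10.7, 12.8 and 11.4 CPM in WPF. Its groups did not overlap (log2 fold change -0.53, SE 0.25, adjusted p = 0.489 in edgeR), but Cutal overlaps it on the opposite strand with 2232 reads against 749. Psmd9 and Psmd10, also chaperones of the 19S base, had values of -0.01 and 0.11. Psmd9 is overlapped by Hpd, a highly expressed liver enzyme gene, with 98903 reads against its own 1073.

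The other regulators were not called. Psme4, which makes the activator PA200, was at 34.9, 30.7 and 38.8 CPM in KPF, against 40.3, 51.8 and 39.2 CPM in WPF, without overlap (log2 fold change -0.33, SE 0.21). Psme3, which makes the nuclear activator PA28 gamma, was at 25.9, 17.7 and 24.7 CPM in KPF and 20.8, 20.2 and 21.1 CPM in WPF (log2 fold change 0.14, SE 0.21). Psmf1, an inhibitor of the core, had a value of -0.07. In all, every KPF library lay below every WPF library for 6 of the 47 genes (Psma2, Psmb2, Psmb5, Psmd5, Psmd8 and Psme4), against 8.15% of all tested genes.

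The 19S, alpha, constitutive beta and immune genes tended to share their high and low libraries within a group. The assembly factors were divided, with KPF1, KPF2 and KPF3 highest for 2, 4 and 1 of 7 genes. For each gene, CPM was set against its mean over the 6 libraries on the log2 scale, and the median was taken over the class. The 19S genes had medians of 0.29, -0.37 and -0.10 in KPF1, KPF2 and KPF3 and of 0.18, 0.11 and -0.29 in WPF2, WPF3 and WPF4, so the groups overlapped. KPF1 was the highest KPF library for 15 of the 17 19S genes, against 32.6% of all tested genes, and WPF4 was the lowest WPF library for 17 of 17, against 40.3%. KPF2 was the lowest KPF library for 13 of 17, against 32.8%. The alpha genes had medians of 0.10, -0.38 and -0.15 in KPF and of 0.17, 0.11 and -0.21 in WPF. KPF2 was the lowest KPF library for 7 of 7 alpha genes, and WPF4 the lowest WPF library for 5 of 7. These orders rest partly on scaling, with TMM factors of 0.89, 1.08 and 1.18 in WPF2, WPF3 and WPF4. By FPKM, WPF4 was not the lowest WPF library for Psmc6, Psmd2, Psmd3, Psmd6, Psmd7, Psmd8, Psmd13 and Psmd14. Among the alpha genes it was not the lowest by FPKM for Psma1, Psma3, Psma4 and Psma5. On that scale KPF2 was no longer the lowest KPF library for Psmc1, Psmc4, Psmc5 and Psmd4, nor for Psma2, Psma4, Psma5 and Psma6.

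The constitutive beta genes had medians of -0.02, -0.21 and -0.28 in KPF and of 0.45, 0.12 and -0.20 in WPF. WPF2 was the highest WPF library for 7 of 7, against 33.1% of all genes. By FPKM, WPF2 was not the highest WPF library for Psmb2, Psmb4 and Psmb7. The immune genes had another order, with medians of -0.36, 0.37 and 0.02 in KPF and of -0.14, -0.16 and 0.23 in WPF. KPF2 was the highest KPF library for 5 of 5, against 33.0%, and WPF4 the highest WPF library for 4 of 5, against 36.8%. These shares describe 3 libraries a group, and genes of 1 library are not independent.

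**Figure D3:**
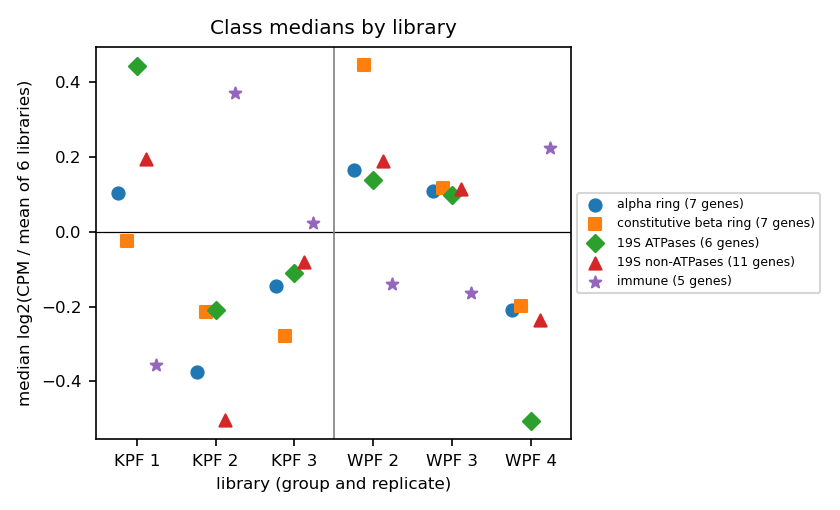
Median over a class of log2(CPM / mean of the 6 libraries) (y axis) in each KPF and WPF library. The 19S ATPases run from 0.45 in KPF1 to -0.51 in WPF4. The immune genes are highest in KPF2 at 0.37 and WPF4 at 0.23, where both 19S classes, the alpha ring and the constitutive beta ring are below 0.

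**Figure D4:**
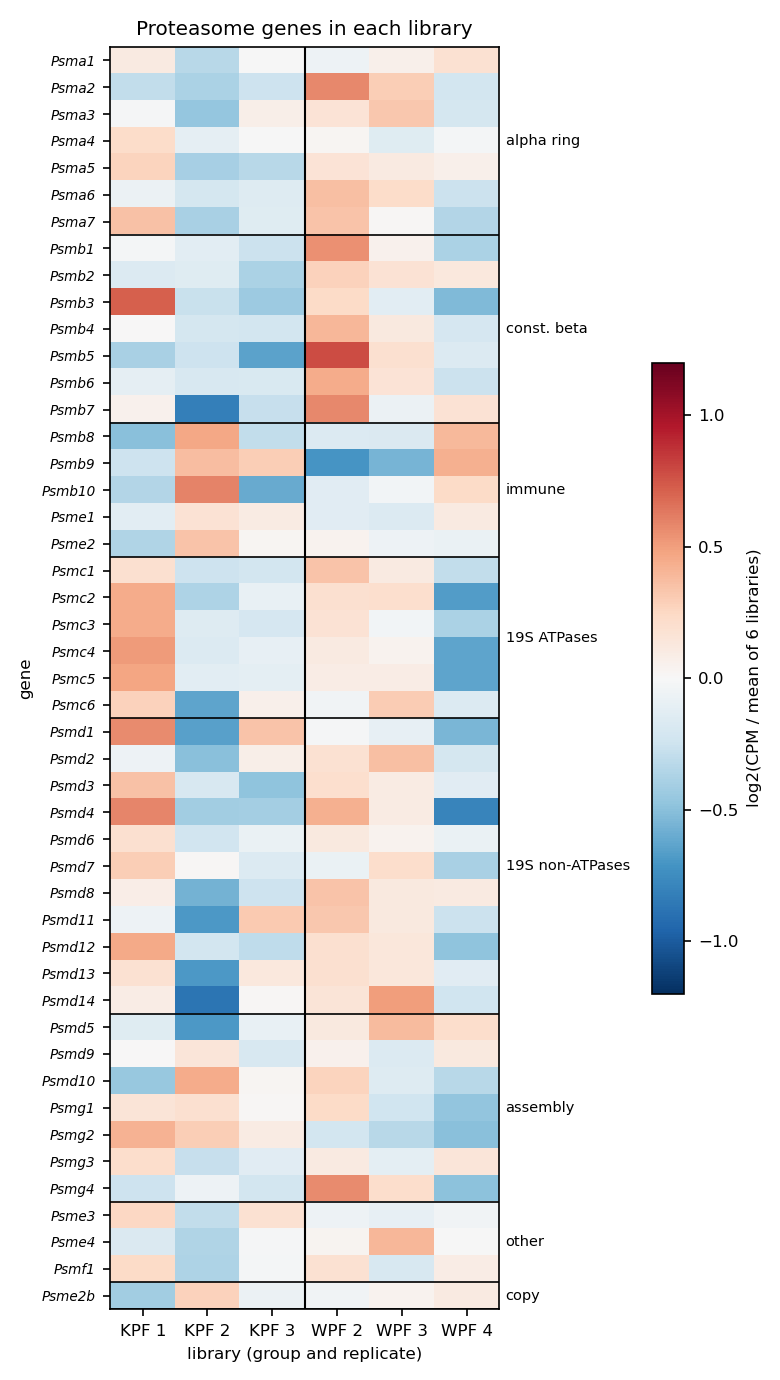
Log2(CPM / mean of the 6 libraries) of each of the 47 genes (rows, by class) in each library (columns), blue for below and red for above the mean. KPF2 is the lowest KPF library for 13 of the 17 19S genes and for the 7 alpha genes, and the highest for the 5 immune genes.

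Subunits are present in equal numbers in the core and in the 19S particle, but their RNA levels per length were far apart. Over the 14 constitutive core genes the mean FPKM of the 6 libraries ran from 2.70 for Psmb7 to 83.8 for Psmb6, a 31.0-fold span, and over the 17 19S genes from 2.29 for Psmd13 to 76.7 for Psmc5, or 33.5-fold. Each span rests on its lowest gene, which a gene on the opposite strand overlaps. In a comparison chosen after seeing the data, without Psmb7 the core spanned 10.3-fold, from Psma1 at 8.16, and without Psmd13 the 19S genes spanned 12.2-fold, from Psmd11 at 6.28. Per kilobase of coding length in place of exonic length, the span was 21.7-fold for the core, from Psmb7 to Psmb3, and 22.8-fold for the 19S genes, from Psmd13 to Psmd4. Among the 6 ATPases it went from 4.79-fold by exonic length to 2.11-fold by coding length. The lowest of the 19S genes, Psmd13, has 577 reads in all and is overlapped by Sirt3 with 3439 reads on the opposite strand. In total 23 of the 47 genes overlap another gene, and for 9 that gene has at least 10% of their own reads.

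Of the catalytic subunits, Psmb6 had an FPKM of 72.1 ± 5.04 in KPF and 95.5 ± 11.2 in WPF, Psmb5 of 46.7 ± 8.54 and 82.5 ± 15.7, and Psmb7 of 2.08 ± 0.61 and 3.32 ± 0.46 (SD, n = 3 each). Psmb6 exceeded Psmb5 in every library, but in WPF their SDs overlapped. The immune subunits were lower than Psmb5 and Psmb6 throughout, with Psmb10 at 18.7 ± 9.45 in KPF and 21.2 ± 5.605 in WPF, Psmb8 at 9.92 ± 4.06 and 11.7 ± 4.18, and Psmb9 at 5.33 ± 1.15 and 4.75 ± 2.75. The assembly factors ran from 1.36 for Psmd5 to 29.7 for Psmg4 and were mostly lower than the subunits, with a median of 4.91 against 28.6 for the core.

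**Figure D5:**
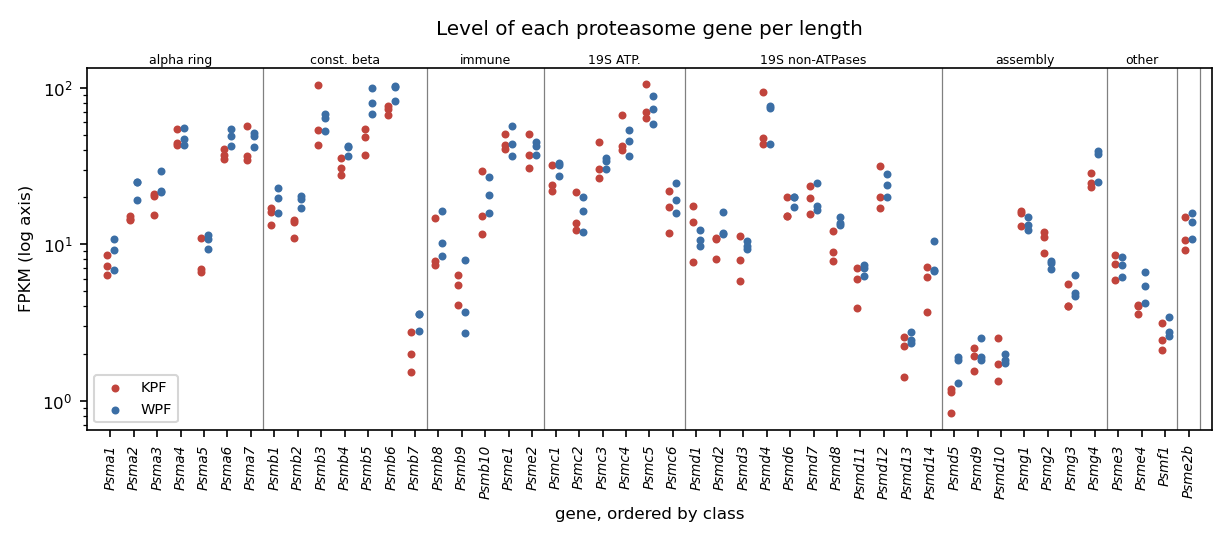
FPKM (y axis, log scale) of the 47 genes by class, with 1 point for each KPF (red) and WPF (blue) library. Within the core, Psmb7 lies far under Psmb6 and Psmb5, and the points of the groups lie close together for most genes compared with the distances between genes.

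Genes that work with the proteasome but carry other names were counted in the same fit. Of 10 tested partners, 9 had a log2 fold change below 0 (median -0.20), and 2 were called lower, whereas 48.6% of all tested genes were below 0 and 3.98% were called lower. Pomp, the maturation factor needed to close the core, was at 24.6, 28.7 and 37.9 CPM in KPF, against 52.6, 46.4 and 49.7 CPM in WPF. Every KPF library lay below every WPF library (log2 fold change -0.71, SE 0.22, adjusted p = 0.430 in edgeR). Zfand5, an activator of the 26S proteasome, was at 50.4, 51.3 and 44.1 CPM in KPF, against 79.5, 79.7 and 59.7 CPM in WPF, and its log2 fold change of -0.59 lay just past the threshold. Without KPF1, Pomp had a value of -0.57 and lost the call, and Zfand5 lost it without KPF3, WPF2 or WPF3 (-0.52 each) and by DESeq2 (-0.58).

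Of 12 genes listed for the NRF1 route, by which proteasome genes are transcribed, 1 was called lower, against 3.98% of all tested genes. In the list, 5 were above 0 (median -0.09). The called gene was Nfe2l2, which makes NRF2, a separate factor that was listed beside NRF1. No other gene of the list was called. Nfe2l2 was at 33.0, 91.1 and 126 CPM in KPF and 159, 309 and 145 CPM in WPF (log2 fold change -1.29, SE 0.52, adjusted p = 0.450 in edgeR). KPF1 was the lowest library and WPF3 the highest, and the call was lost without KPF1 (-0.91), KPF2 (-1.37) or WPF3 (-0.87). Nfe2l1 itself was at 103, 147 and 103 CPM in KPF and 95.2, 102 and 79.6 CPM in WPF, each KPF library above each WPF library, and was not called (log2 fold change 0.36, SE 0.25). None of 9 genes of ubiquitin supply and shuttling was called (median -0.10), and the smallest p belonged to Ubqln1, a shuttle factor, at -0.41 (SE 0.24).

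Among 8 genes that load peptides made by the immune proteasome onto MHC class I, none was called (median 0.12). The smallest p was that of Calr, a chaperone of the endoplasmic reticulum, at 2631, 527 and 1242 CPM in KPF and 933, 803 and 637 CPM in WPF, with groups that overlapped. Of 12 interferon regulators 1 was called lower (median -0.07), against 3.98% of all tested genes. This was Ifngr1, a chain of the interferon gamma receptor, at 8.40, 8.43 and 11.002 CPM in KPF and 15.4, 15.7 and 19.3 CPM in WPF, without overlap (log2 fold change -0.86, SE 0.22, adjusted p = 0.430 in edgeR). The immune genes Psmb8, Psmb9 and Psmb10, in the same libraries, overlapped between the groups.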

How the data were processed

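The authors deposited 1 table with raw read counts and FPKM per gene for poly(A) RNA of 3 KPF and 3 WPF livers. The submitters' processing notes name cutadapt 1.9.1, HISAT2 2.2.1, HTSeq 0.6.1, DESeq2 and GRCm39, and the strand setting of the counting is not given in the sources used here. The deposited FPKM values equal the counts divided by exonic length and library total within 0.005. Symbols were matched by Ensembl ID for 52073 of 56691 genes. Counts were analysed with edgeR 4.0.16 (R 4.3.3; TMM; quasi-likelihood test; 10866 genes whose mean FPKM reached 1) and tested on simulated data. Adjusted p-values are Benjamini-Hochberg. Alternatives used DESeq2 1.42.0, limma 3.58.1 on log2(FPKM + 1 or 0.1), other filters and scalings, each library left out and the replicate block. Each pair of libraries within a group differed by more than sampling noise (chi-square per gene of 48.1 or more). The genes and lists were chosen with earlier results of these data known. Genes were named by class (catalytic and immune subunits, class extremes, those called or with the 5 smallest p, the highest and lowest levels) and, of the other lists, by the smallest p or a call; Psma6, Psma7, Psmb1, Psmb4, Psmd2, Psmd4, Psmd7, Psmd9, Psmd10, Psmd14, Psme2b, Psmf1, Psmd11, Psma1, Psmg1, Psmg3, Des, Nfe2l1 and Tap1 were added after their values were seen. Paaf1 had no match. Promoters are from RefSeq (GRCm38.p6), and no coordinates were converted.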

Additional observations from a re-analysis of the deposited data

How the results depend on the processing

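Psmb5 stayed below 0 and Psmg2 above 0 under every alternative, and none of the 47 genes passed an adjusted p of 0.05 under any. Psmb5 was called under every other filter, scaling and tool. Leaving out 1 library, its log2 fold change ran from -0.94 to -0.44, and it was called only without KPF2 or WPF4. Psmg2 ran from 0.54 to 0.70 and lost its call without KPF1 or WPF4; it also did so with no filter on mean FPKM (0.56), with library totals (0.51) and in limma with a pseudocount of 1 (0.45) or 0.1 (0.49). Zfand5 lost its call with an FPKM minimum of 5 (-0.58), with upper quartile scaling (-0.55), with DESeq2 (-0.58) and with its size factors (-0.58). The number of the 47 genes called higher and lower was 0 and 2 with no filter, 0 and 3 with library totals, 0 and 2 in limma with a pseudocount of 1 and 0 and 3 with 0.1. Leaving out each library in turn gave 0 to 2 called higher and 0 to 2 called lower. The cause of these differences was not tested.

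Over all tested genes, 634 were called higher and 432 lower, a higher share of 59.5%. The counts were 1576 and 910 with no filter, 255 and 205 with an FPKM minimum of 5, 371 and 716 with library totals, 238 and 552 in limma with a pseudocount of 1, and 257 and 681 with 0.1. The higher share was 34.1%, 30.1% and 27.4% in the last 3, where the median of all genes was -0.12, -0.09 and -0.12. Leaving out each library gave 324 (without WPF3) to 910 (without KPF3) higher and 246 (without WPF3) to 709 (without KPF3) lower. Without WPF2 the counts were 355 and 286. An adjusted p under 0.05 was reached by 286 genes with no filter, 156 with DESeq2, 1 in limma with 0.1 and 5 without WPF4.

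With library totals Psma4 was at -0.037, Psme1 at -0.029 and Psme2 at -0.064, where the main values were above 0. In limma with a pseudocount of 1 these were -0.038, -0.012 and -0.090, with Psme3 at -0.0047, and with 0.1 they were -0.039, -0.012 and -0.093, with Psme3 at -0.0059. With no filter Psme2 was at -0.0059. The assembly factors had a median of 0.26 with an FPKM minimum of 5, which drops the low genes of the class. The span of levels per coding length, chosen after seeing the data, was 21.7-fold for the core and 22.8-fold for the 19S genes, against 31.0-fold and 33.5-fold, and leaving out the lowest gene, also chosen after seeing the data, gave 10.3-fold and 12.2-fold.

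Leaving out each library in turn, the median log2 fold change ran from -0.24 (without KPF1) to -0.03 (without WPF2) over the 47 genes, from -0.43 to -0.17 in the core, from -0.24 (without KPF1) to 0.12 (without KPF2) in the 19S genes and from -0.13 (without KPF2) to 0.20 in the immune genes. Genes that changed sign ran from -0.0063 to 0.15 (Psma4, below 0 without KPF1), -0.24 to 0.42 (Psmb3, KPF1), -0.0070 to 0.37 (Psmc4, KPF1), -0.0072 to 0.34 (Psmc5, KPF1), -0.50 to 0.17 (Psmb10, above 0 without KPF1, KPF3 or WPF4), -0.44 to 0.11 (Psmb8, the same 3), -0.29 to 0.080 (Psmd13, KPF2), -0.13 to 0.22 (Psme2, KPF2) and -0.31 to 0.0036 (Psmc1, WPF2).

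Replicate numbers 2 and 3 occur in both groups, and the labels do not say whether the numbers pair the libraries. The deviations of same-numbered libraries correlated at 0.04 and -0.02, and those of differently numbered libraries at -0.19 to 0.14. With 3 libraries a group, these values cannot decide whether the numbers are pairs. With the replicate number as a block, which rests on the pairs 2 and 3 alone, 1 of the 47 genes was called higher (Psmb9, 0.96) and 3 lower (Psma2, Psmb5 and Psmd14). The median was -0.41 over the 47 genes, -0.48 in the core, -0.43 in the 19S genes, -0.33 in the ATPases and -0.44 in the other 19S subunits. Values of the other sign were 0.089 for Psmb10, 0.26 for Psmb8, -0.40 for Psmb3, -0.21 for Psmc4, -0.21 for Psmc5, -0.093 for Psmd1 and -0.10 for Calr. Psmg2 (0.47), Pomp (-0.58) and Ifngr1 (-0.69) lost their calls under the block.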
